A study of Mus musculus with 8 samples.

Results

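The BAF (mSWI/SNF) complex is a chromatin remodeler that moves nucleosomes with the energy of ATP hydrolysis. Each complex carries a single motor ATPase, either BRM (Smarca2) or Brg1 (Smarca4), on a core built around the scaffolding subunits BAF155 (Smarcc1) and BAF170 (Smarcc2), with Smarcb1, Smarce1 and a member of the Smarcd (BAF60) family. An ARID subunit sets the type of complex, since Arid1a or Arid1b stands in canonical BAF and Arid2 in the polybromo form, PBAF. In the developing forebrain, exchange of paralogous subunits accompanies the passage from neural progenitors to neurons.

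The 10 genes described here are the ATPase genes Smarca2 and Smarca4, the ARID genes Arid1a, Arid1b and Arid2, and the core genes Smarcd1, Smarcd2, Smarcd3, Smarcb1 and Smarce1. They were taken by Ensembl identifier as the subunits listed for these roles other than the deleted scaffolds, and all 10 were found among 48709 genes in the count files and passed the filter on low counts. Their RNA was measured by RNA sequencing in cortex of C57BL/6J mice at postnatal day 3 (P3), in 4 control samples and 4 samples labelled BAF cKO, called dcKO_hGFAP-Cre or dcKO here. The study's methods give the mutants as homozygous for floxed BAF155 and BAF170 with a single copy of hGFAP-Cre. For the study's comparisons the methods give controls that are heterozygous for both floxed alleles and carry the Cre too, whereas the sample titles and the design text call them wild type, so the exact control genotype is uncertain. The Cre is active in radial glia of the dorsal telencephalon before birth, and the mutants died soon after birth. Which cells of the dissected cortex had lost the scaffolds was not measured here. Nothing in the labels ties a sample to a particular animal or litter, and p-values measure the spread between these samples.

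The libraries held 21126713 to 31805395 counted reads in control and 22002784 to 32110285 in dcKO. The deleted genes followed the labels. Smarcc1 was 159.0 ± 11.2 CPM (read counts scaled to a common library size; SD, n = 4) in control and 81.2 ± 5.90 CPM (n = 4) in dcKO, and Smarcc2 was 482.6 ± 14.7 and 283.2 ± 28.2 CPM (n = 4 each), with log2 fold changes of -0.97 and -0.77 (edgeR quasi-likelihood adjusted p = 5.44e-06 and 2.28e-05). Counts of a whole gene do not separate transcripts that lack the floxed part from intact ones. Several lists of cell type markers also differed between the groups. The summed level of 6 excitatory neuron markers was 1636 to 1764 CPM in control and 818.7 to 971.8 in dcKO, that of 8 striatal neuron markers 122.0 to 174.9 and 364.5 to 703.1, and that of 6 interneuron markers 516.1 to 519.9 and 795.4 to 896.3, and 5 of 6 passed the edgeR test as lower, 5 of 8 as higher and 6 of 6 as higher in dcKO. All 5 oligodendrocyte precursor markers were lower and 5 of 6 microglial markers higher by the same test. The 5 choroid plexus markers summed to 608.6 and 1165 CPM in dcKO replicates 1 and 2, against at most 19.4 in the other samples, and 2 of 5 were higher by the test. dcKO replicate 3 stood apart in other lists, with 5 astrocyte markers summing to 1165 CPM against 457.2 to 565.9 in the other dcKO samples and 752.0 to 812.6 in control (Gfap 273.4 against 24.2 to 32.2 and 79.3 to 89.5), and no astrocyte marker passed the test. The 6 apical progenitor markers summed to 1711 CPM in that sample, 944.4 to 1289 in the other dcKO samples and 1022 to 1056 in control, with 3 higher and 1 lower. Of 4 intermediate progenitor markers 3 were higher, and of 6 cycling cell markers 2 were higher. Of 4 endothelial markers 3 were lower, and none of 5 red blood cell markers passed the test. Over all genes tested 37.5% passed it, with 18.9% lower and 18.6% higher in dcKO. The counts for cycling cell and choroid plexus markers are near the 37.5%. No marker was at 0 in every sample. Mitochondrial genes took 2.06 to 3.23% of counts in control and 3.57 to 5.47% in dcKO. The part of any of these in the values below was not tested, and in bulk tissue fewer cells of a type cannot be told apart from less RNA per cell.

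Paralogs of this complex resemble each other enough to ask whether reads can be assigned to each gene, so the most similar coding stretches are shown first. Each pair below is the best-matching 50-base coding window of 2 paralogs among those that lie within a single exon of each gene. The windows are read 5′ to 3′ along the transcript from mm10 with GENCODE M21 exons, and the capitals mark the bases that differ. The ATPase genes are shown because Smarca2 fell while the difference in Smarca4 did not pass the test, and their closest windows lie in exon 25 of Smarca2 (chr19:26710581-26710630, plus strand) and exon 26 of Smarca4 (chr9:21677573-21677622, plus strand).
Smarca2: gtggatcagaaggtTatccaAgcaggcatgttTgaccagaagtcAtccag
Smarca4: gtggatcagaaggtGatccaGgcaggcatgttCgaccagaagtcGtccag
The BAF60 genes are shown because Smarcd3 rose, Smarcd2 was lower and the difference in Smarcd1 did not pass the test. The closest windows of Smarcd1 (exon 6, chr15:99705690-99705739, plus strand) and Smarcd3 (exon 6, chr5:24595394-24595443, minus strand) differ as follows.
Smarcd1: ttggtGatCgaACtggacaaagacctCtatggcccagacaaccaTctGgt
Smarcd3: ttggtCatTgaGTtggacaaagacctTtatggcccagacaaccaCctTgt
For Smarcd2 (exon 11, chr11:106264506-106264555, minus strand) and Smarcd3 (exon 11, chr5:24593298-24593347, minus strand) the closest windows are these.
Smarcd2: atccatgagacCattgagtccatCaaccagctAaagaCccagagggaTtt
Smarcd3: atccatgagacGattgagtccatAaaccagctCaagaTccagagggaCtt
The windows match at 46, 43 and 45 of 50 bases, and the best window of Smarcd1 with Smarcd2 at 43. Arid1a and Arid1b are printed for the ARID family, in exon 20 of each (chr4:133680770-133680819, minus strand, and chr17:5342599-5342648, plus strand), and match at 45 of 50.
Arid1a: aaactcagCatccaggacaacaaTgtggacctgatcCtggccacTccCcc
Arid1b: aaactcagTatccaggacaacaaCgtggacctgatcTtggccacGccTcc
No 50-base coding window was identical between the 2 genes of any of these 5 pairs, and the longest identical runs were 18 to 26 bases. The length of 50 bases was set for the comparison, and the read length is not stated here. Untranslated parts of the exons were not compared between the paralogs.

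Between dcKO and control, 2 of the 10 genes were lower, 2 were higher and 6 did not pass an adjusted p of 0.05 (edgeR quasi-likelihood test, Benjamini-Hochberg over 16525 genes). Smarca2, a motor ATPase, fell, and Smarcd3, a BAF60 subunit, rose. These were the calls that held under each of 18 alternatives, and the calls for Smarcd2 (lower) and Smarce1 (higher) were each lost under 9 or more of them. Across all genes tested the percent called was 37.5, with 18.9 lower and 18.6 higher, so that 4 of 10 is close to the background. Likewise 2 of the 10 genes had all dcKO samples below all control samples and 2 had all above, where 34.4% of genes tested did not overlap between groups (17.7% below and 16.7% above). The median log2 fold change of the 10 genes was -0.04 and their median absolute change 0.10, beside 0.02 and 0.29 over all genes tested. This comparison was not matched for level. The 10 genes had at least 319 reads in every sample, while the filter used a minimum count of 10.

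**Figure D1:**
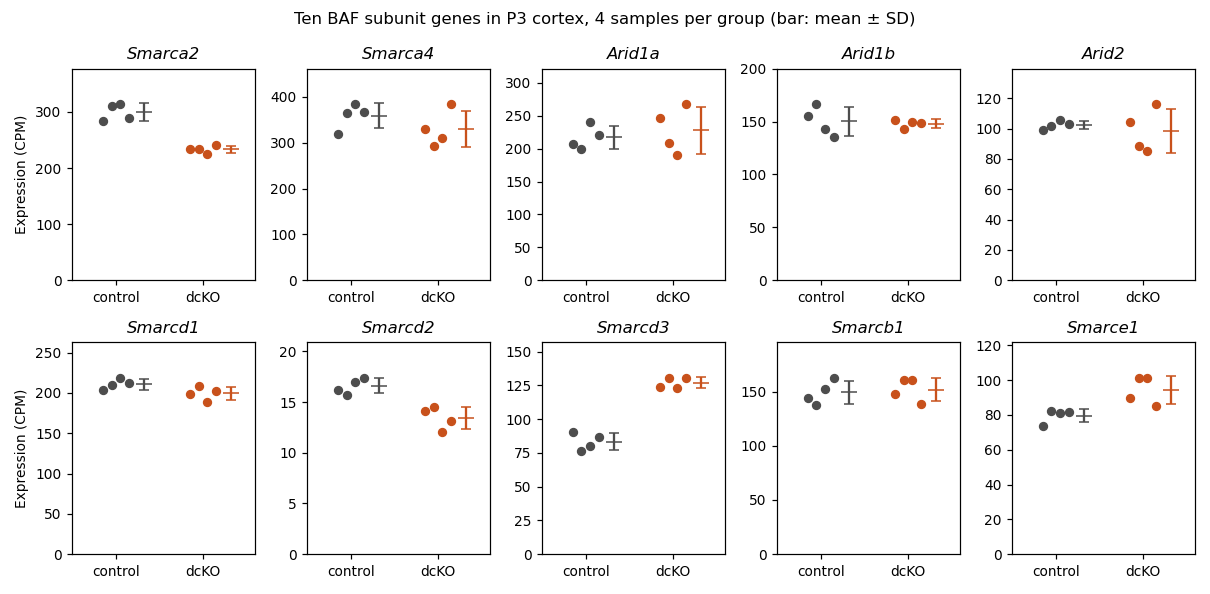
Expression of the 10 subunit genes in CPM (vertical axes, each starting at 0) in 4 control and 4 dcKO samples, one point per sample in replicate order, with the mean and SD as a bar. Smarca2 and Smarcd2 lie lower and Smarcd3 and Smarce1 higher in all 4 dcKO samples than in any control sample, and the groups overlap in the other 6 panels.

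Smarca2 (chr19:26605050-26778322, plus strand) encodes BRM. It was counted at 283.2, 311.4, 314.5 and 288.8 CPM in control replicates 1 to 4 and at 233.6, 234.4, 225.3 and 241.3 CPM in dcKO replicates 1 to 4. Every dcKO sample was below every control sample, and the dcKO samples lay close together. The mean fell from 299.5 ± 15.8 to 233.6 ± 6.57 CPM (SD, n = 4 each), to 78.0% of control, with a log2 fold change of -0.36 (SE 0.07, 95% interval -0.51 to -0.21; edgeR adjusted p = 0.00162). Of all genes tested, 41.8% had a larger fold change in either direction. The value was between -0.39 and -0.24 over the alternatives, with -0.36 (edgeR adjusted p = 0.0276) without dcKO replicates 1 and 2 and -0.34 (edgeR adjusted p = 0.00297) without dcKO replicate 3.

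Smarca4 (chr9:21616169-21704230, plus strand) encodes Brg1, the alternative motor. It was counted at 319.7, 363.9, 384.9 and 367.5 CPM in control and at 329.6, 293.8, 311.1 and 384.6 CPM in dcKO. The groups overlapped, since dcKO replicate 4 was level with the highest control and control replicate 1 was within the dcKO range. The log2 fold change was -0.12 (SE 0.09, 95% interval -0.32 to 0.08; edgeR adjusted p = 0.319), and no alternative called it, with adjusted p from 0.0612 to 0.999. These are RNA levels, and the protein of Brg1 or of any other subunit was not measured here. The study stained Brg1 in embryos of mutants made with another Cre line, and reports the protein lost from their medial ganglionic eminence. It also cites earlier work in which many BAF subunits were lost through proteasomal degradation once both scaffolds were deleted, cortical cells included. That Smarca2 passed the threshold and Smarca4 did not is no test of the difference between them, which was made on their share instead.

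Smarca4 made up 71.3, 72.0, 72.9 and 73.7% of the summed ATPase signal of Smarca2 and Smarca4 in control, counted per kb of annotated exon, and 75.7, 73.4, 75.3 and 77.8% in dcKO. Control replicate 4 exceeded dcKO replicate 2, and the other samples of the groups were apart. The mean share went from 72.5 ± 1.04 to 75.5 ± 1.81% (SD, n = 4 each), a difference of 3.04 points that did not pass the test (two-sided exact permutation p = 0.0571, 0.0857 adjusted over 6 shares). A share within a sample does not depend on the scaling between samples. It does depend on the length used, since the annotated exons span 14.27 kb in Smarca2 and 6.47 kb in Smarca4. Per kb of the longest transcript, Smarca4 was at 56.3 and Smarca2 at 50.6 CPM per kb in control, so their levels were closer. On that length the difference in share was 3.95 points and did not pass the test either (exact permutation adjusted p = 0.0686). With 4 against 4 the exact test cannot go below 0.0286.

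The ARID genes gave no call. Arid1a (chr4:133679008-133756769, minus strand), the ARID subunit of most canonical complexes, was at 207.8, 199.8, 240.0 and 221.1 CPM in control and 246.6, 208.6, 189.9 and 268.2 CPM in dcKO, with a log2 fold change of 0.07 (95% interval -0.16 to 0.30; edgeR adjusted p = 0.629). The dcKO range enclosed the control range. Arid1b (chr17:4994332-5347656, plus strand), its paralog, was at 155.5, 166.7, 143.1 and 135.0 CPM in control and 151.3, 142.5, 149.8 and 148.8 CPM in dcKO, with a log2 fold change of -0.02 (95% interval -0.19 to 0.15; edgeR adjusted p = 0.869). Here the dcKO samples lay inside the control range.

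Arid2 (chr15:96287518-96404992, plus strand), the PBAF subunit, was at 99.2, 102.0, 105.7 and 102.8 CPM in control and 104.1, 88.3, 84.9 and 116.3 CPM in dcKO. The control samples were close together, and dcKO samples lay on both sides of them. The log2 fold change was -0.06 (95% interval -0.27 to 0.15; edgeR adjusted p = 0.673). For the 3 ARID genes the intervals leave room for changes between -0.27 and 0.30 on the log2 scale, and the sign of each small change turned under at least 1 alternative.

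Arid1a made up 61.3 ± 3.85% of Arid1a plus Arid1b per kb of exon in control and 62.6 ± 3.53% in dcKO (SD, n = 4 each; two-sided exact permutation p = 0.629, also 0.629 adjusted). Arid2 made up 23.6 ± 0.41% of the 3 ARID genes in control and 22.4 ± 0.82% in dcKO, a difference of -1.24 points (exact permutation p = 0.0857, adjusted p = 0.103). Neither share passed the test.

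Among the core genes, the BAF60 family held both directions. Smarcd3 (chr5:24590818-24624411, minus strand) encodes BAF60C, known for its role in heart and skeletal muscle and present in neuronal complexes. It was counted at 90.4, 76.3, 79.9 and 86.5 CPM in control and at 123.6, 130.6, 123.1 and 130.3 CPM in dcKO. The lowest dcKO sample was well above the highest control sample. The mean rose from 83.3 ± 6.36 to 126.9 ± 4.10 CPM (SD, n = 4 each), 1.52-fold, with a log2 fold change of 0.61 (SE 0.08, 95% interval 0.44 to 0.77; edgeR adjusted p = 8.5e-05). This was the largest change among the 10 genes, and 21% of all genes tested changed more. The call held in 18 of 18 alternatives, with values from 0.56 to 0.73, and stood at 0.60 (edgeR adjusted p = 0.00405) without dcKO replicates 1 and 2 and at 0.62 (edgeR adjusted p = 0.000117) without dcKO replicate 3.

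Smarcd3 shares 48.2% of its annotated exon bases with Chpf2, a chondroitin synthesis gene on the opposite strand. Whether the counting used strand is not given in the sources used here, so how reads in the shared stretch were assigned is not known. The overlap takes in 33% of the bases in Smarcd3 coding transcripts. It is part of the annotated exon length used for the Smarcd3 levels and shares per kb below, and its effect on them was not tested. Chpf2 was 20.5 ± 2.87 CPM in control and 24.0 ± 4.52 in dcKO (SD, n = 4 each), with a log2 fold change of 0.23 that did not pass the test (edgeR adjusted p = 0.237).

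Smarcd2 (chr11:106263179-106272972, minus strand), which encodes BAF60B and is known for granulocyte development, was the least abundant of the 10 genes. It was at 16.2, 15.7, 17.0 and 17.4 CPM in control and 14.1, 14.5, 12 and 13.1 CPM in dcKO. The groups did not overlap, and the highest dcKO sample (14.5 CPM) stood near the lowest control sample (15.7 CPM). The log2 fold change was -0.30 (SE 0.10, 95% interval -0.53 to -0.08; edgeR adjusted p = 0.0351), and the call was kept in 8 of 18 alternatives. It was lost when any of control replicates 3 or 4 or dcKO replicates 1, 3 or 4 was left out, with edgeR adjusted p up to 0.0881, and without dcKO replicates 1 and 2 it was -0.40 (edgeR adjusted p = 0.0679).

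Smarcd1 (chr15:99702129-99713991, plus strand), which encodes BAF60A, was at 203.1, 209.3, 218.9 and 212.0 CPM in control and 198.8, 208.6, 188.8 and 202.2 CPM in dcKO. The groups overlapped in part, and the log2 fold change of -0.08 (95% interval -0.23 to 0.07) did not pass the test (edgeR adjusted p = 0.38).

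Within the BAF60 family, Smarcd3 took 24.3, 20.9, 20.9 and 22.7% of the signal per kb of exon in control and 31.2, 31.3, 32.4 and 32.1% in dcKO. Smarcd1 took 69.5, 72.9, 72.8 and 70.8% in control and 63.8, 63.7, 63.1 and 63.3% in dcKO. Smarcd2 took 6.1 to 6.5% in control and 4.5 to 5.1% in dcKO. For each of the 3 shares all samples of one group lay on one side of the other, with differences of 9.53 points for Smarcd3, -8.02 for Smarcd1 and -1.51 for Smarcd2. Each gave the smallest two-sided p that the exact permutation test allows, 0.0286, and 0.0571 after adjustment over 6 shares, which does not pass 0.05. The 3 shares add up to the whole and are not independent. Taken per kb of the longest coding transcript, an alternative added after the data were seen, the Smarcd3 difference was 12.13 points and the Smarcd1 difference -10.54.

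**Figure D2:**
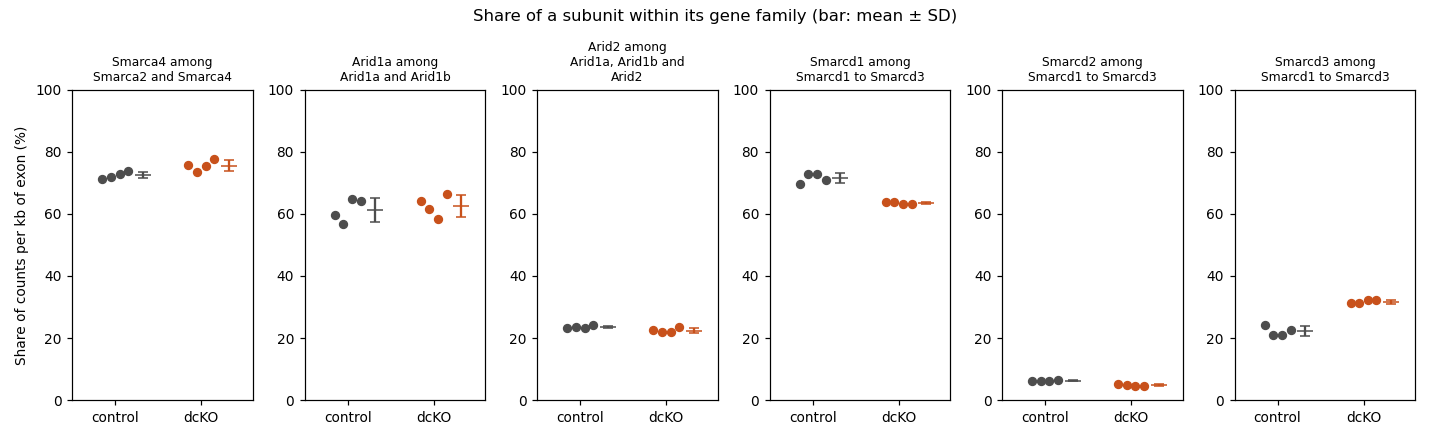
Share of a subunit gene within its family, in percent of counts per kb of annotated exon (vertical axes from 0 to 100), for 4 control and 4 dcKO samples with mean and SD. The Smarcd3 share is 20.9 to 24.3% in control and 31.2 to 32.4% in dcKO, the Smarcd1 share moves the other way, and the ATPase and ARID shares overlap between groups.

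Smarce1 (chr11:99209047-99231017, minus strand) encodes BAF57, a DNA-binding HMG-box subunit. It was at 73.9, 82.1, 81.2 and 81.6 CPM in control and 90.0, 101.4, 101.3 and 85.3 CPM in dcKO. The groups did not overlap, and dcKO replicate 4 was close to the controls. The mean went from 79.7 ± 3.91 to 94.5 ± 8.11 CPM (SD, n = 4 each), 1.19-fold, with a log2 fold change of 0.25 (SE 0.08, 95% interval 0.07 to 0.42; edgeR adjusted p = 0.0307). The call was kept in 9 of 18 alternatives. It was lost when any 1 control sample or dcKO replicate 2 or 3 was left out, with edgeR adjusted p up to 0.0871, and without dcKO replicates 1 and 2 the value was 0.23 (edgeR adjusted p = 0.15). Of the 50-base stretches in Smarce1 exons, 15% also occur in another gene, mostly in processed pseudogenes, of which Gm8494 and Smarce1-ps1 each averaged at most 0.0682 CPM. How reads with several matches were counted is not given in the sources used here.

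Smarcb1 (chr10:75896769-75921617, minus strand), the BAF47 core subunit and a tumour suppressor in rhabdoid tumours, was at 143.9, 137.4, 152.8 and 162.8 CPM in control and 148.0, 160.5, 160.5 and 138.4 CPM in dcKO. The groups overlapped over nearly their whole range. The log2 fold change was 0.03 (95% interval -0.15 to 0.20; edgeR adjusted p = 0.831), and 95.1% of genes tested changed more.

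**Figure D3:**
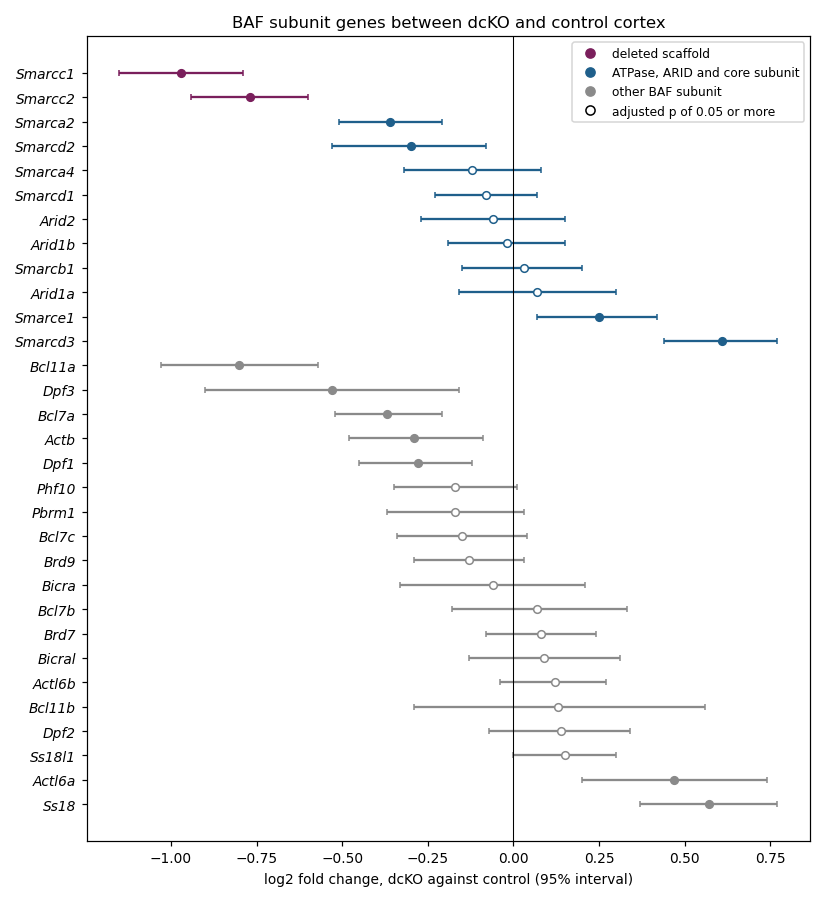
Log2 fold change of dcKO against control (horizontal axis, points) with its 95% interval (bars) for the deleted scaffolds, the 10 subunit genes and 19 other BAF subunit genes, filled where the edgeR adjusted p is under 0.05. Smarcc1 at -0.97 and Smarcc2 at -0.77 lie beyond all 10 subunit genes, which run from Smarca2 at -0.36 to Smarcd3 at 0.61.

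Count per length allows levels to be compared between genes. Per kb of annotated exon, control levels among the 10 genes were highest in Smarca4 (55.4 ± 4.28 CPM per kb) and Smarcd1 (52.4 ± 1.63; SD, n = 4), whose ranges overlapped. Smarca2 at 21.0, Arid1a at 18.9, Smarcb1 at 18.8 and Smarcd3 at 16.3 CPM per kb followed, each overlapping the next. Smarce1 at 12 and Arid1b at 11.9 CPM per kb overlapped each other, while Arid2 at 9.54 and Smarcd2 at 4.62 stood apart below them. In dcKO, Smarcd3 at 24.8 CPM per kb came next after Smarca4 and Smarcd1, with all its samples (24.0 to 25.5) above those of Arid1a (16.5 to 23.4), and Smarca2 at 16.4 (15.8 to 16.9) was below Smarcb1 at 19.2 (17.5 to 20.2).

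This order depends on the length used. Per kb of the longest coding transcript, Smarcb1 was the highest of the 10 genes in both groups (89.9 CPM per kb in control and 91.5 in dcKO), and Smarca2 at 50.6 CPM per kb in control overlapped Smarca4 at 56.3. On that scale Smarcd3 was 48.0 CPM per kb in control and 73.1 in dcKO, below Smarcd1 in control (63.8) and above it in dcKO (60.4). The annotated exons of Smarcb1 span 7.93 kb against 1.66 kb in its longest coding transcript, and those of Smarca2 14.27 against 5.92 kb.

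Of 19 other BAF subunit genes, all tested, 5 were lower, 2 higher and 12 did not pass the test. Their median log2 fold change was -0.06 and their median absolute change 0.15. Over all genes tested the percent called was 37.5, with 18.9 lower and 18.6 higher, so these calls together are close to the background. Bcl11a, a zinc-finger subunit, fell from 289.0 ± 14.7 CPM in control to 166.2 ± 26.5 in dcKO (n = 4, SD), by 0.80 on the log2 scale (edgeR adjusted p = 0.000139). Dpf3, a PHD-finger subunit of neuronal complexes, was at -0.53 (edgeR adjusted p = 0.0289), and Bcl7a was at -0.37 (edgeR adjusted p = 0.00188). The higher genes were Ss18 at 0.57 (edgeR adjusted p = 0.000597) and Actl6a at 0.47 (edgeR adjusted p = 0.0115). Ss18 and Actl6a are the progenitor partners of Ss18l1 and Actl6b, whose log2 fold changes of 0.15 and 0.12 did not pass the test (edgeR adjusted p = 0.103 and 0.216). The progenitor markers were mixed in the same samples. Log2 fold changes were 1.28 for Pax6, 0.71 for Sox2, 0.58 for Vim and 2.71 for Neurog2 (edgeR adjusted p = 6.35e-05, 6.81e-05, 0.0015 and 1.13e-06). Eomes and Btg2 were also higher, at 0.70 and 0.62 (edgeR adjusted p = 0.0265 and 0.00614), while Nes was lower at -0.84 (edgeR adjusted p = 0.00278). Hes5 at 0.17, Fabp7 at 0.23 and Insm1 at 0.06 did not pass the test (edgeR adjusted p = 0.705, 0.411 and 0.716). The part of progenitor cells in the values of Ss18 and Actl6a was not tested. Without dcKO replicates 1 and 2, 2 of the 19 genes were called lower and 1 higher, and without dcKO replicate 3 the counts were 5 and 2. Among 17 ATPase genes of other remodeler families, 1 was lower (Chd4) and 1 higher (Chd6), where 37.5% of all genes tested were called. Their median log2 fold change was 0.04, and their median absolute change was 0.10, the same as for the 10 genes.

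Each of the 10 genes was matched to the gene outside the complex whose profile over the 8 samples lay nearest, by the root mean square difference of centred log2 CPM. Smarca2 was nearest to Adgra3, an adhesion receptor, at 0.026 log2 units, and Smarcd3 to Hmgn1, a nucleosome-binding protein, at 0.059. Smarcd2 was nearest to Pou6f1 at 0.041 and Smarce1 to Coq10a at 0.024. For the other 6 genes the nearest profiles were those of Mical3 (Smarca4), Numa1 (Arid1a), Smad5 (Arid1b), Mon2 (Arid2), Ap3s2 (Smarcd1) and Dcaf13 (Smarcb1), at 0.024 to 0.037.

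**Figure D4:**
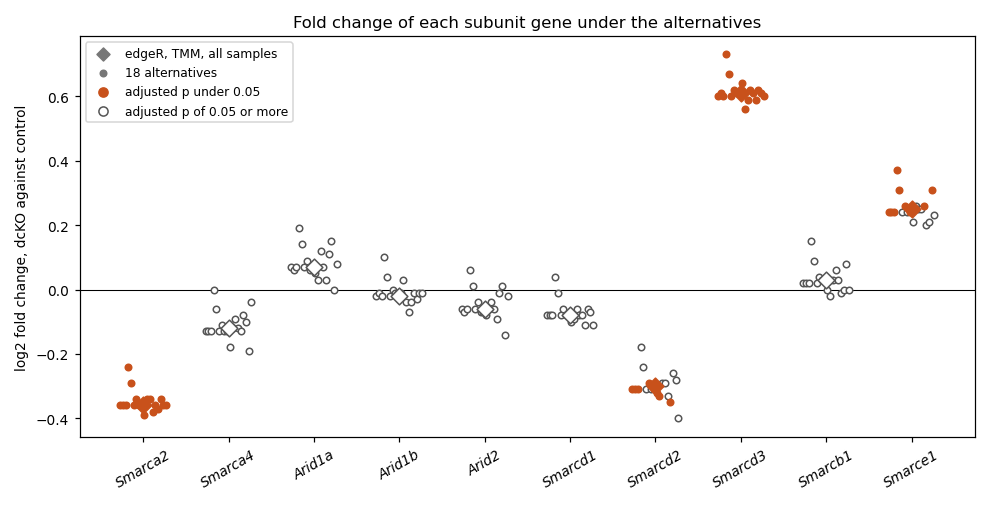
Log2 fold change of dcKO against control (vertical axis) of each of the 10 genes as reported (diamonds) and under 18 alternatives in processing or samples (dots), filled where the adjusted p is under 0.05. Smarca2 (-0.39 to -0.24) and Smarcd3 (0.56 to 0.73) are filled throughout, Smarcd2 and Smarce1 in part, and the other genes in none.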

How the data were processed

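RNA was isolated from P3 dorsal telencephalon with TRIZOL, and libraries were made with the TruSeq RNA v2 kit. Per the study's methods, the authors used mm10 for alignment, featureCounts for counting and DESeq2 for testing. The deposited values are raw counts per Ensembl gene, 1 file per sample. The aligner, annotation, strand setting and treatment of reads with several matches are not given in the sources used here. These settings can change the counts of overlapping genes and of genes with pseudogenes.

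Symbols, lengths and coordinates came from GENCODE M21 (mm10), which matched 48349 of 48709 identifiers. Genes passing the edgeR filterByExpr filter (minimum count 10) were scaled by TMM and tested with the edgeR 4.0.16 quasi-likelihood F test in R 4.3.3, 4 dcKO against 4 control samples without covariates, with Benjamini-Hochberg adjustment and a threshold of 0.05. DESeq2 1.42.0 and limma 3.58.1 voom were alternatives, with other scalings and filters, blocks of replicate number or sequencing lane, and samples left out. CPM used TMM library sizes. Lanes 5, 5, 6 and 7 held replicates 1 to 4 of both groups. Shares were taken from counts per kb of annotated exon and tested by exact permutation over 70 arrangements. The test was checked on simulated data, and the share of changed genes it was required to recover was lowered after the first simulation had fallen short of it. No replicates agreed within sampling noise.

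The 10 genes, the other lists and the markers were chosen with earlier results of these data known. All 10 genes and both scaffolds were named, of the other subunits the 3 largest called changes in each direction, and for each of the 10 the nearest profile. Genes outside this rule (Chd4, Chd6, Ss18l1, Actl6b, Chpf2, the cell type markers, Gm8494 and Smarce1-ps1) were named after their values were seen.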

Additional observations from a re-analysis of the deposited data

Results flagged for a closer look

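Smarce1 in control replicate 1 was at 73.9 CPM, apart from the other control samples at 81.2 to 82.1 CPM. Its gap to the nearest of them was 0.885 of the range of the group, past the 95% critical value of Dixon's test for 4 samples. This was the single such sample among 36 groups of 4 examined over the 10 genes, the scaffolds and the 6 shares, and chance alone would give about 1.8. Without control replicate 1 the Smarce1 call was lost.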

How the results depend on the processing

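Smarca2 (lower) and Smarcd3 (higher) were called under all 18 alternatives. The count of the 10 genes called lower was 1 in place of 2, with library totals, upper quartile factors, no filter on low counts, the replicate block, a threshold of 0.01 and without dcKO replicates 1 and 2 (chosen after seeing the data, for their choroid plexus markers), and 1 to 2 with 1 sample left out. The count called higher was 1 in place of 2 with no filter, the block, the threshold of 0.01 and without dcKO replicates 1 and 2, and 1 to 2 with 1 sample left out. Library totals moved the median of all genes by 0.12 on the log2 scale and lowered the share of calls that were lower from 50.4 to 31.4% (upper quartile factors 40.2%). Under them Arid1b went to 0.10 and 0.04, Arid2 to 0.06 and 0.01 (library totals and upper quartile factors in turn), and Smarcd1 to 0.04 with library totals, none of them called. With 1 sample left out, Arid1a ran from -0.00 to 0.15, Arid1b from -0.07 to 0.03, Arid2 from -0.14 to 0.01, Smarcb1 from -0.02 to 0.08, and the difference in the Arid1a share from -0.24 to 2.74 points. With a sample left out the exact test of a share cannot go below 0.0571.

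Of the 19 other subunits, those lower numbered 2 with library totals, the threshold of 0.01 and without dcKO replicates 1 and 2 (3 to 5 with 1 sample left out). Those higher numbered 6 with library totals, 4 with upper quartile factors and 1 with the threshold of 0.01 or without dcKO replicates 1 and 2 (2 to 3 with 1 sample left out). Over all genes, 1938 were lower and 1611 higher at 0.01, and 1581 and 1388 without dcKO replicates 1 and 2 (2375 to 3273 and 2199 to 3308 with 1 sample left out). The causes were not tested.

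Same-numbered samples of the groups shared a sequencing lane, but the labels tie them to no common litter or animal, and their deviations from the group means correlated at 0.17, -0.07, 0.21 and -0.02, so they were not treated as pairs. With the replicate block, Smarcd2 was at -0.31 (edgeR adjusted p = 0.0696) and Smarce1 at 0.24 (edgeR adjusted p = 0.0532), and no other call among the 10 genes changed. Sign flips over 4 pairs cannot give a share an exact p below 0.125. With the lane as a block, both were called (edgeR adjusted p = 0.0456 and 0.042).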

Other observations

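Among dcKO samples, replicates 1 and 4 were above replicates 2 and 3 in Smarca4 (329.6 and 384.6 CPM against 293.8 and 311.1), Arid1a (246.6 and 268.2 against 208.6 and 189.9) and Arid2 (104.1 and 116.3 against 88.3 and 84.9). In Smarcb1 (148.0 and 138.4 against 160.5 and 160.5) and Smarce1 (90.0 and 85.3 against 101.4 and 101.3) they were below. This order was noticed in the values and was not tested. The SD of Arid2 was 14.5 CPM in dcKO and 2.67 in control, and that of Arid1a 35.6 and 17.6 (n = 4 each), whereas that of Arid1b was 3.90 in dcKO and 13.9 in control.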
